A study of Mus musculus with 10 samples.

Results

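Itpr1, Itpr2 and Atp2b2 are 3 long calcium genes on mouse chromosome 6, the chromosome that carries the bait break of this translocation assay. They were chosen because of the number of junctions they took up in these libraries, so their levels are described here and not tested. A junction was assigned to a gene when it lay in the gene body or within 2 kb of it, and the 3 genes held 133 of the 26585 junctions that lay over 1 Mb from the bait. They are 3 of 1081 protein-coding genes on chromosome 6 outside the 1 Mb around the bait, and 3 of the 137 among these that are longer than 100 kb.

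All cells were Abelson-transformed pre-B cells of strain C57BL/6 with the genotype LIG4-/-, which lack the ligase of classical end joining. They were held in G1 with imatinib for 48 h, and doxycycline at 1 µg/ml induced the zinc-finger nuclease that makes the bait break. The 10 libraries fall into 8 groups. The etoposide group (n = 2) received 50 µM etoposide for 2.5 h and then 12 h of recovery, and the untreated group (n = 2) did not. Single libraries came from cells given IFN with etoposide, IFN alone, DRB with etoposide, DRB alone, DRB with AsiSI, and AsiSI alone. DRB inhibits transcription and was given for 2 h beforehand, and the labels name IFN only by that abbreviation. AsiSI is a restriction enzyme, induced here with tamoxifen at 1 µM, 20 h after doxycycline, and only the AsiSI libraries received tamoxifen. Every library is genomic DNA from a transformed line, so the cell type could not be checked by expression of its markers, and no expression of the 3 genes was measured. With 1 library in a group there is no replicate check, and such a test compares libraries, not conditions.

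Etoposide holds topoisomerase II on the DNA ends it has cut, and in the assay such ends are seen when they are joined to the bait. Itpr1 and Itpr2 encode inositol trisphosphate receptors, the channels through which the endoplasmic reticulum releases calcium, and in B-lineage cells phospholipase C gamma downstream of the antigen receptor makes the ligand that opens them. Itpr1 is best known from cerebellar Purkinje cells and Itpr2 from heart and liver. Atp2b2 encodes a plasma membrane pump that exports calcium from the cell and is best known from hair cells of the inner ear and from cerebellar neurons.

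The genes lie on the side of the bait with the higher coordinates (mm10). Itpr1 spans 108213083 to 108551116, which is 338 kb, and begins 66.7 Mb from the bait break at 41554973. Atp2b2 spans 113743831 to 114042613, which is 299 kb, and begins 72.2 Mb from it. Itpr2 spans 146108299 to 146502258, which is 394 kb, and begins 105 Mb from it. No other protein-coding gene overlaps them, but long noncoding RNA genes do. In the etoposide libraries 4 junctions of Itpr2, 4 of Itpr1 and 6 of Atp2b2 lay inside such a gene as well, and the 2 genes sharing a position cannot be told apart there.

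The joined reads show what was counted. Of the 133 junctions, 16 lay in 8 pairs whose positions in the gene were at most 100 bases apart, and 6 of these pairs came from a single library. The 10 reads printed here belong to 5 of the pairs. They were picked after the data were seen, to show how close the joints lay. Each is read from the bait into the gene, with 30 bases on either side. Capitals mark bases covered by both the bait alignment and the gene alignment. An alignment can hold a mismatch, so a capital need not match the bait. In the read at 146454636 and in the last read printed, a capital differs from the bait as other reads show it.
Itpr2, etoposide replicate 1, chr6:146271578-146271611, minus strand: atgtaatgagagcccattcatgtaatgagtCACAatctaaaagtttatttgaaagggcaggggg
Itpr2, etoposide replicate 1, chr6:146271580-146271612, minus strand: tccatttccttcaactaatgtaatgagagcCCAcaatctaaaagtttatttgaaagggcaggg
Itpr2, etoposide replicate 2, chr6:146454600-146454632, plus strand: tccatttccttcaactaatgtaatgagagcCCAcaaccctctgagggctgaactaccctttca
Itpr2, etoposide replicate 1, chr6:146454636-146454670, plus strand: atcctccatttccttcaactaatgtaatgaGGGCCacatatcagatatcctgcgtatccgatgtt
Itpr1, etoposide replicate 1, chr6:108367715-108367748, plus strand: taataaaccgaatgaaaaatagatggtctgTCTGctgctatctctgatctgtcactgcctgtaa
Itpr1, etoposide replicate 2, chr6:108367761-108367793, minus strand: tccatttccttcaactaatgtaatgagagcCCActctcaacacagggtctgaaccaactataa
Atp2b2, etoposide replicate 1, chr6:114015300-114015333, plus strand: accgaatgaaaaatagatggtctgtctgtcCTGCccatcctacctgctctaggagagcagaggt
Atp2b2, etoposide replicate 1, chr6:114015302-114015337, plus strand: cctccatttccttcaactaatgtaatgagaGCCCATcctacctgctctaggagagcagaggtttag
Atp2b2, etoposide replicate 1, chr6:114008719-114008748, minus strand: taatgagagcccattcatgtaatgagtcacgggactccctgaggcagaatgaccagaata
Atp2b2, etoposide replicate 1, chr6:114008715-114008748, minus strand: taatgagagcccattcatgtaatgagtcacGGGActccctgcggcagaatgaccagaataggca
The first Itpr2 pair has joints 1 base apart in the gene that were joined to bait ends at 41554920 and 41554902, so these are different joints. The second pair shows joints 36 bases apart from both etoposide libraries, and the Itpr1 pair shows joints 78 bases apart in opposite orientations. The first Atp2b2 pair lay 2 bases apart, on bait ends at 41554975 and 41554903. The last Atp2b2 pair shared its position, and over the 60 bases compared the 2 reads differed at 1, and counting it once leaves 12 junctions of Atp2b2 in that library. It was the only repeated position among the junctions of the 3 genes in any library.

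Itpr2 was the most frequently joined of the 3 genes. It took 39 junctions in etoposide replicate 1 and 12 in etoposide replicate 2, against 0 in both untreated libraries. It took 14 junctions with IFN and etoposide, against 0 with IFN alone. With DRB and etoposide it took 0, and with DRB alone 0. With DRB and AsiSI it took 1, and with AsiSI alone 0. Junctions in Itpr2 were therefore seen in the 3 libraries given etoposide without DRB, and once elsewhere.

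Itpr1 was joined in the same 3 libraries, less often than Itpr2 in each. It took 21 and 11 junctions in etoposide replicates 1 and 2, against 0 in both untreated libraries, and 11 with IFN and etoposide, against 0 with IFN alone. The remaining 4 libraries held 0. Atp2b2, the pump gene, was joined least often. It took 13 and 2 junctions in etoposide replicates 1 and 2, against 0 in both untreated libraries, and 7 with IFN and etoposide, against 0 with IFN alone. It took 0 with DRB and etoposide, against 1 with DRB alone, and 1 with DRB and AsiSI, against 0 with AsiSI alone. Its 2 junctions in etoposide replicate 2 were 1 more than in either library without etoposide that held any.

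Counts depend on how many junctions a library holds, so they were scaled in 2 ways. The first divides by the junctions within 1 Mb of the bait, of which there were 1198 and 4013 in etoposide replicates 1 and 2 and 1124 and 5273 in untreated replicates 1 and 2. The libraries given IFN with etoposide, IFN, DRB with etoposide and DRB held 3216, 3630, 2255 and 3140, and those given DRB with AsiSI and AsiSI held 10485 and 7431. Intervals in brackets are exact 95% Poisson intervals, which cover counting error in the gene alone, the near-bait total being treated as exact.

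Per 1000 near-bait junctions Itpr2 reached 32.6 (23.1 to 44.5) in etoposide replicate 1 and 2.99 (1.55 to 5.22) in etoposide replicate 2, and 4.35 (2.38 to 7.30) with IFN and etoposide. Itpr1 reached 17.5 (10.9 to 26.8), 2.74 (1.37 to 4.90) and 3.42 (1.71 to 6.12) in the same 3 libraries. Atp2b2 reached 10.9 (5.78 to 18.6), 0.498 (0.0604 to 1.80) and 2.18 (0.875 to 4.48). Etoposide replicate 1 stood apart for each gene, 10.9-fold above replicate 2 for Itpr2, 6.39-fold for Itpr1 and 21.8-fold for Atp2b2. The means over both etoposide libraries therefore carry an error as large as themselves, at 17.8 ± 20.9 for Itpr2, 10.1 ± 10.5 for Itpr1 and 5.67 ± 7.32 for Atp2b2 (SD, n = 2 each), against 0 in the untreated libraries.

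The second scale divides by junctions elsewhere in the genome, over 1 Mb from the bait and outside the annotated antigen receptor loci. There were 10309 and 3296 of these in etoposide replicates 1 and 2, and 3288 with IFN and etoposide. On this scale the 2 etoposide replicates lay closer together for all 3 genes than per near-bait junction, though Atp2b2 still differed 2.08-fold. Per 1000 such prey junctions Itpr2 took 3.78 (2.69 to 5.17) and 3.64 (1.88 to 6.36) in etoposide replicates 1 and 2, a mean of 3.71 ± 0.101 (SD, n = 2), and 4.26 (2.33 to 7.14) with IFN and etoposide. Itpr1 took 2.04 (1.26 to 3.11) and 3.34 (1.67 to 5.97), a mean of 2.69 ± 0.919 (SD, n = 2), and 3.35 (1.67 to 5.99) with IFN and etoposide. Atp2b2 took 1.26 (0.671 to 2.16) and 0.607 (0.0735 to 2.19), a mean of 0.934 ± 0.463 (SD, n = 2), and 2.13 (0.856 to 4.39) with IFN and etoposide. These 3 levels of Atp2b2 spread more widely than those of the receptor genes, though the intervals overlap for each gene. The single Atp2b2 junctions in DRB alone and in DRB with AsiSI come to 5.92 (0.150 to 33.0) and 0.853 (0.0216 to 4.75) on this scale, both above etoposide replicate 2, and the single Itpr2 junction in DRB with AsiSI comes to 0.853. The order was Itpr2, Itpr1, Atp2b2 in each of the 3 libraries, but the intervals of neighbours in that order overlapped in all 3, and only in etoposide replicate 1 did the interval of Itpr2 lie wholly above that of Atp2b2.

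**Figure D1:**
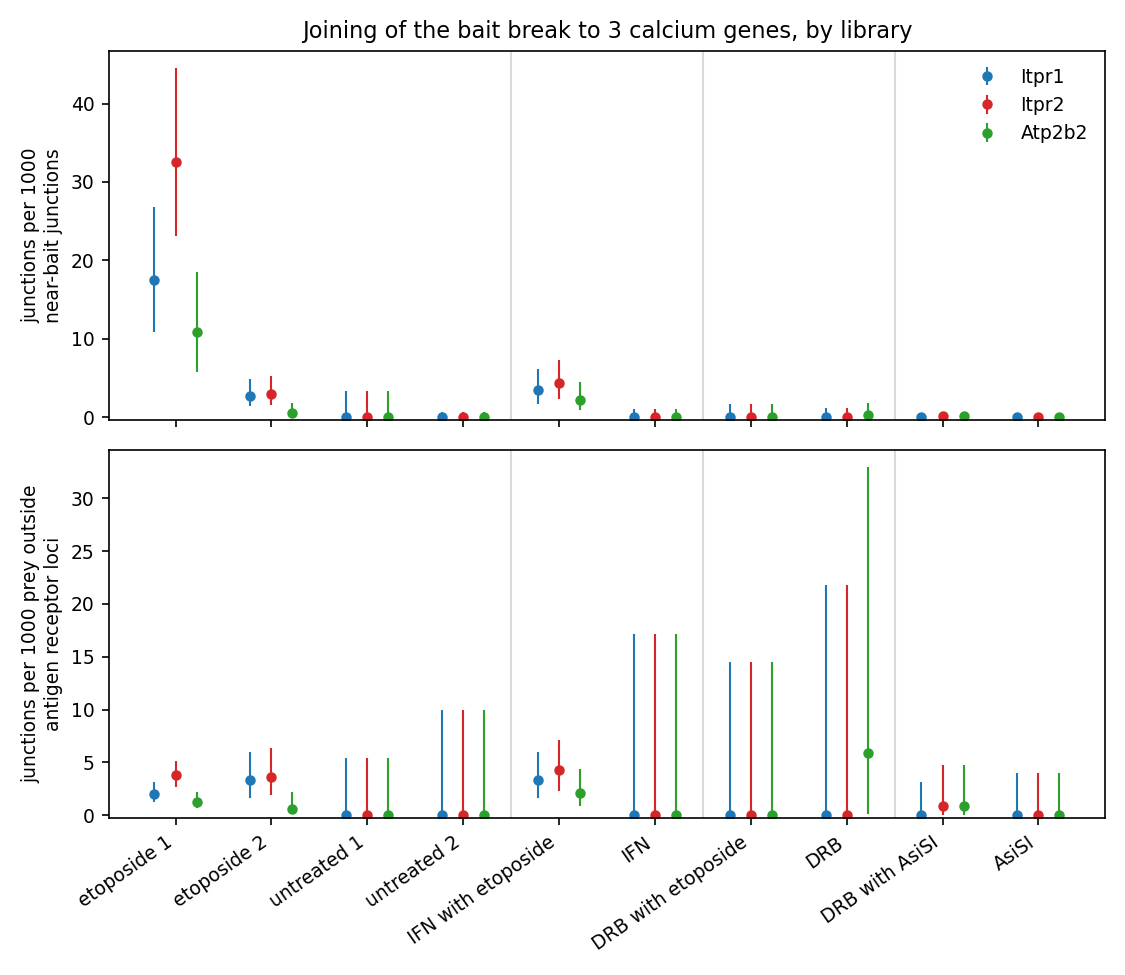
Junctions in each gene per 1000 near-bait junctions (top) and per 1000 prey junctions outside antigen receptor loci (bottom) in each library, with exact 95% Poisson intervals. In the top panel etoposide replicate 1 stands far above all other libraries. In the bottom panel the 3 libraries given etoposide without DRB lie at similar levels for Itpr1 and Itpr2 and spread more widely for Atp2b2. Libraries with few prey junctions have wide intervals.

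The first question for these genes is what etoposide added. With 0 junctions in the untreated libraries no fold change can be given, so levels were set against a limit of 3 junctions per untreated library. These ratios take the etoposide count as exact, so they are not lower bounds that cover its counting error. Per near-bait junction Itpr2 in etoposide replicate 1 lay 12.2-fold above the limit of untreated replicate 1. In etoposide replicate 2 it lay 5.26-fold above that of untreated replicate 2. The labels name this library as its control, but it was sequenced in another run. Itpr1 lay 6.57-fold and 4.82-fold above the limit in the same comparisons. Against untreated replicate 1, which held fewer junctions, the ratios for etoposide replicate 2 were only 1.12-fold for Itpr2 and 1.03-fold for Itpr1. There the lower ends of their Poisson intervals, 1.55 and 1.37 per 1000, lay under the limit of 2.67. Atp2b2 lay 4.07-fold above the limit in replicate 1. In replicate 2 its 2 junctions lay under the limit of 0.569 per 1000 that untreated replicate 2 allows. Per prey junction outside antigen receptor loci no gene lay above the limit. The untreated libraries held only 676 and 370 such junctions, and a count of 0 there allows 4.44 and 8.11 per 1000.

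A limma fit with voom weights over all genes with at least 10 junctions in the 4 libraries called 68 of 121 genes higher with etoposide (56.2%). Itpr1 and Itpr2 were among the 68, and Atp2b2 was not. The genes were chosen on this contrast, so nothing is read from these calls. Of the 121 genes, 97 had 0 junctions in both untreated libraries and so passed the minimum through etoposide alone. The number of genes called was 0 when library sizes came from prey outside antigen receptor loci, with 2 at an unadjusted p under 0.05. Leaving out 1 library left at most 1 gene called, namely 1 without untreated replicate 1 and 0 without untreated replicate 2, etoposide replicate 1 or etoposide replicate 2, with 3, 0, 0 and 0 at an unadjusted p under 0.05.

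IFN with etoposide set against IFN is the etoposide contrast in cells given IFN. Itpr2 had 14 against 0 junctions and Itpr1 11 against 0. Fisher's exact test per near-bait junction called all 14 genes with at least 10 junctions over both libraries higher (100%). The receptor genes passed that minimum through the library given IFN with etoposide alone and were chosen for their junction numbers, so nothing is read from their calls. Set against the limit of 3 junctions in the IFN library, Itpr2 lay 5.27-fold, Itpr1 4.14-fold and Atp2b2 2.63-fold above it. These ratios again take the count with IFN and etoposide as exact. Atp2b2, with 7 junctions, was kept out of the test. Per prey junction outside antigen receptor loci neither receptor gene was called, since the IFN library held only 215 such junctions. The labels name etoposide replicate 1 as the control of both combined treatments, but read names place etoposide replicate 2 in their run, so replicate 2 was used. Against it, the library given IFN with etoposide differed in 0 of 38 genes (0%) by Fisher's exact test, with 6 genes at an unadjusted p under 0.05. Itpr2 had 14 against 12 junctions there and Itpr1 11 against 11, log2 ratios of 0.53 and 0.32 per near-bait junction. Against etoposide replicate 1 the direction turned, to log2 ratios of -2.87 for Itpr2 and -2.33 for Itpr1, and 109 of 113 genes were called, all lower.

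The labels describe DRB as an inhibitor of transcription given before etoposide. The library given DRB with etoposide held 0 junctions in each of the 3 genes, which allows up to 1.33 per 1000 near-bait junctions. That limit lies 2.25-fold below the level of Itpr2 in etoposide replicate 2 and 2.06-fold below that of Itpr1. For Atp2b2 it lies above the level there. Counting error in etoposide replicate 2 is not covered by these ratios. Fisher's exact test called 8 of 14 genes lower (57.1%), the receptor genes among them. They passed the minimum through etoposide replicate 2 alone and were chosen for their numbers in such libraries, so nothing is read from these calls, and per prey junction outside antigen receptor loci neither was called. With 254 such junctions in the library given DRB with etoposide, a count of 0 allows 11.8 per 1000, which is above the level of every gene here in any etoposide library. Whether DRB lowered joining to these genes more than joining elsewhere was not detectable at this depth. In DRB with etoposide against DRB, and in DRB with AsiSI against AsiSI, none of the 3 genes had the 10 junctions needed for the test.

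Within chromosome 6 the receptor genes ranked above the pump gene in number of junctions. In the 4 etoposide libraries together Itpr2 held 65 junctions, Itpr1 43 and Atp2b2 22, which ranked 4, 11 and 41 among the 1081 genes. Per 100 kb Itpr2 held 16.3 junctions, Itpr1 12.6 and Atp2b2 7.27, which ranked 14, 20 and 44 among the 137 genes over 100 kb, whose median was 3.59. Pooled over all 1081 genes the density was 7.24 per 100 kb, about that of Atp2b2. Of the 11 such genes whose middle lay more than 100 Mb from the bait, Itpr2 ranked 1, and the next held 7.65 per 100 kb. That distance was set for Itpr2, and shorter genes were not ranked per 100 kb.

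**Figure D2:**
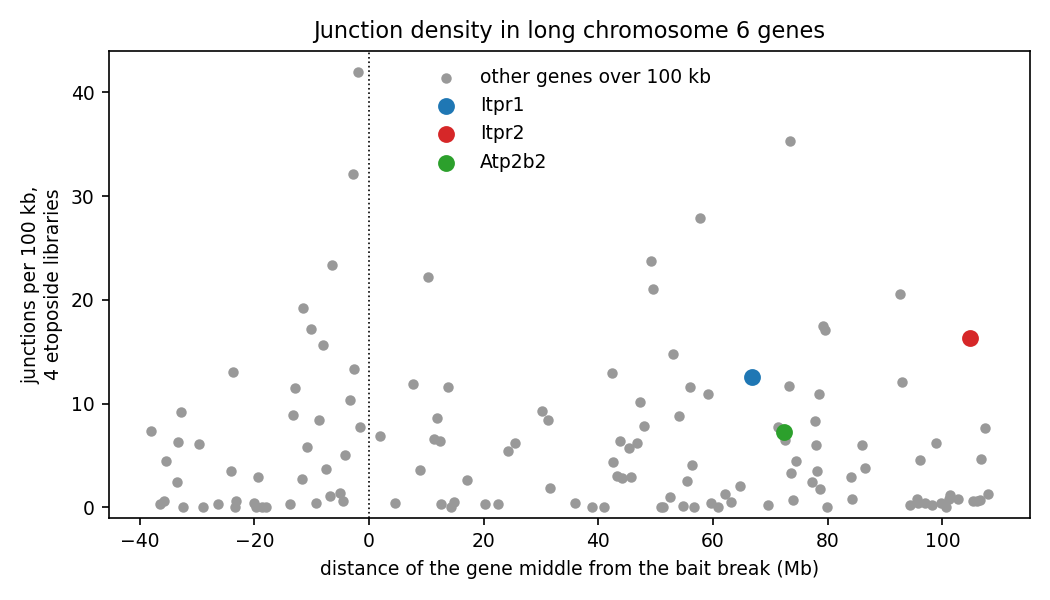
Junctions per 100 kb in the 4 etoposide libraries for each chromosome 6 gene longer than 100 kb, against the distance of its middle from the bait break in Mb. Itpr2 at 16.3 is the highest of the plotted genes more than 100 Mb away, Itpr1 at 12.6 lies above the median of 3.59, and Atp2b2 at 7.27 lies among many others.

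The ground beside the genes was joined as well. The body of Itpr2 held 15.7 junctions per 100 kb, against 4.0 in the 500 kb below its lower coordinate and 6.4 in the 500 kb above its upper one. The body of Itpr1 held 12.4 per 100 kb, against 3.6 in the 500 kb below and 14.6 in the 500 kb above, where 4 other protein-coding genes lie. The body of Atp2b2 held 7.36 per 100 kb, against 10.0 below, where 24 other protein-coding genes lie, and 4.4 above. Only Itpr2 stood above both of its sides.

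**Figure D3:**
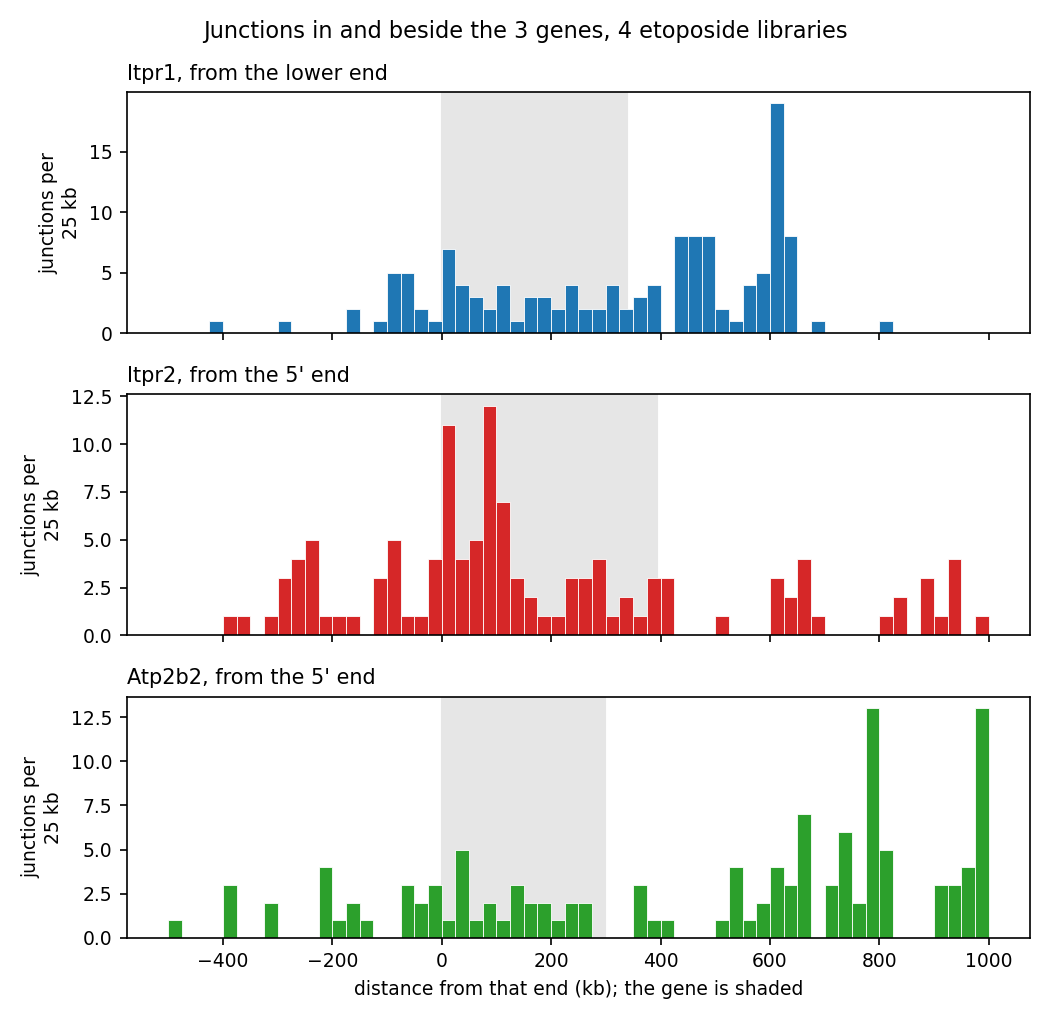
Junctions per 25 kb in and beside each gene in the 4 etoposide libraries, with the gene shaded; the axis runs from the 5′ end for Itpr2 and Atp2b2 and from the lower end for Itpr1. Itpr2 has its tallest bins inside the first part of the gene, while Itpr1 and Atp2b2 have taller bins outside the shaded region.

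Position inside the gene was not used to choose the genes and could be tested. Itpr2 held more of its junctions in its 5′ part than other long genes did. It is transcribed from its upper end, and when the body is divided into 4 segments of equal length, 32 of its 62 junctions fell in the 5′ segment, which is 51.6% (exact 95% binomial interval 38.6 to 64.5). The next 3 segments held 13, 11 and 6. In the other chromosome 6 genes over 100 kb with an annotated strand, 423 of 1582 junctions in the gene body lay in the 5′ segment, which is 26.7%. The difference was 24.9 percentage points (adjusted p = 0.000399 by the two-sided Fisher's exact test over the 26 genes with at least 20 junctions and an annotated strand). The test covers counting error only.

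The share of Itpr2 was similar in the 3 libraries given etoposide without DRB, though the other genes were not compared library by library. The 5′ segment held 19 of 36 junctions in etoposide replicate 1, 6 of 12 in etoposide replicate 2 and 7 of 14 with IFN and etoposide, or 52.8%, 50.0% and 50.0%. The adjusted p of Fisher's exact test stayed under 0.05 when any of the 4 etoposide libraries was left out, and was highest at 0.0475 without etoposide replicate 1. There only 7 genes had enough junctions, so p was adjusted over 7 genes in place of 26, and the values are not on the same footing. The library given DRB with etoposide held 0 junctions of Itpr2, so leaving it out changed only the other genes. Long genes of chromosome 6 differed widely in this share, from 0% to 56.5%, and the test called 8 of the 26 genes in either direction (30.8%) and 3 of them higher (11.5%). Itpr2 was 1 of the 3 and had the next to highest share.

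Few of the Itpr2 junctions lay near its promoter, but the window around it is also a small part of the gene. Within 5 kb of the annotated start lay 5 of 65 junctions, or 7.69% (2.54 to 17.0), and the nearest was 652 bases from it. Outside the gene only 2 kb of that window was counted, and the gene spans 394 kb, so 7.69% is above the window's share of the length. The first 25 kb of the gene held 11 junctions, against 12 in its fullest 25 kb bin. Whether junctions were denser at the promoter than elsewhere in the gene was not tested. The densest 20 kb of the gene held 13 of the 65 junctions, 70.6 to 90.4 kb downstream of the 5′ end, and these came from 3 libraries. Exons were not assigned here.

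Atp2b2, also transcribed from its upper end, did not pass this test. The 5′ segment held 7 of its 22 junctions, or 31.8% (13.9 to 54.9), and the next 3 held 6, 5 and 4. That was 4.20 percentage points above the other genes, with an adjusted p of 0.720 in the same Fisher's exact test. Annotated starts of Atp2b2 lie at 114042080, 113934681 and 113891539, and within 5 kb of them lay 1, 1 and 2 junctions. The long noncoding RNA gene Gm15083 covers the first 37.9 kb of the gene, and 6 of its junctions lay there, among them both close pairs printed above.

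For Itpr1 no strand was used, and positions were counted from the lower coordinate. The 4 segments held 14, 10, 9 and 9 of 42 junctions. The first segment held 10 of 20 in etoposide replicate 1 but 1 of 11 in etoposide replicate 2 and 3 of 11 with IFN and etoposide. The counts are small, and whether the libraries differ was not tested. Its densest 20 kb held 8 of 43 junctions from 3 libraries, from 1.57 kb outside the lower end to 12.1 kb inside it. Within 5 kb of either end lay 3 of 43 junctions of Itpr1, or 6.98% (1.46 to 19.1), against 194 of 1815, or 10.7%, in the other long genes (Fisher's exact test, adjusted p = 0.750). That test called 4 of 28 genes (14.3%) and none of the 3 described here.

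**Figure D4:**
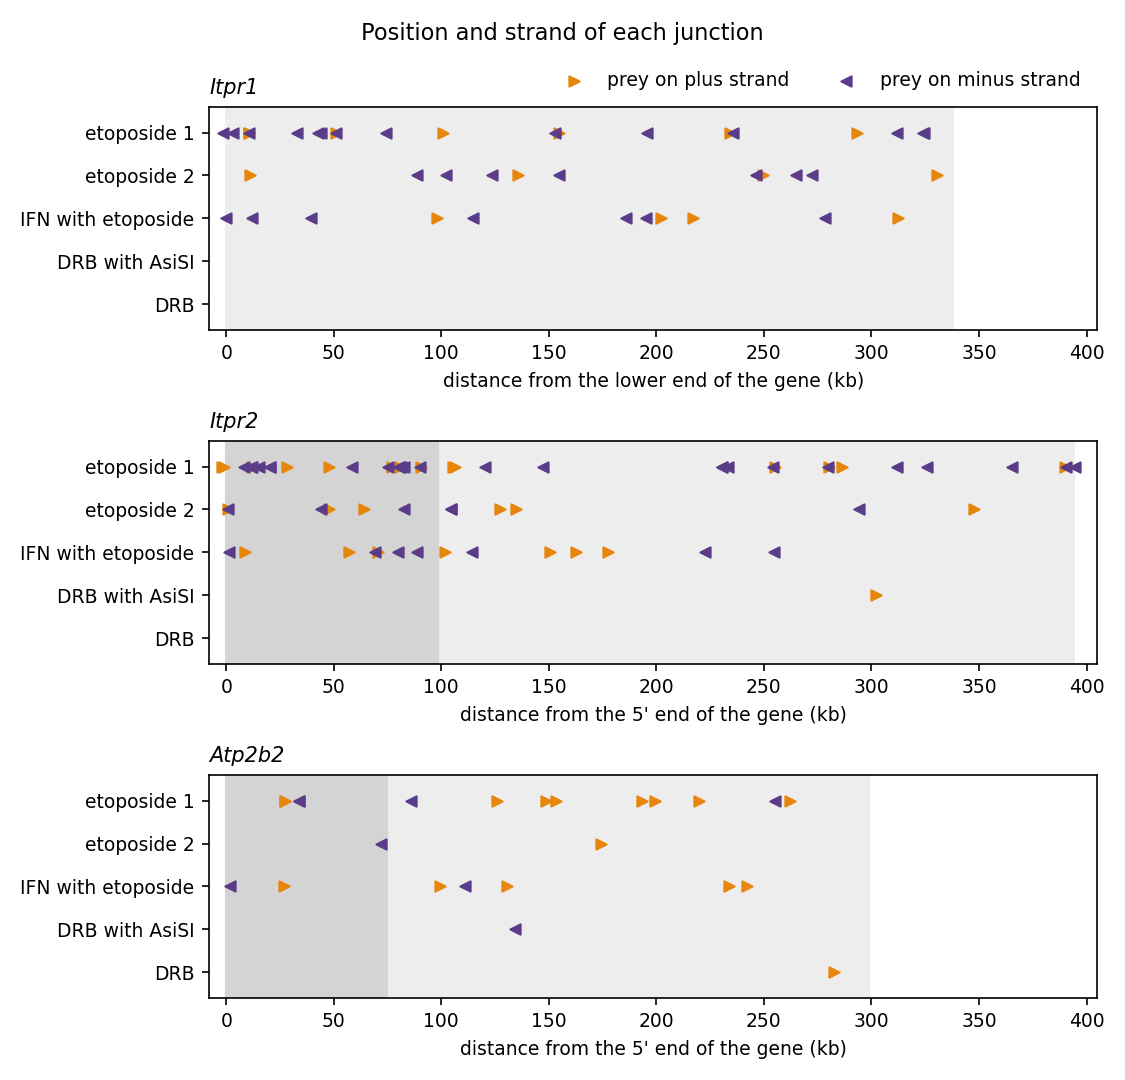
Each junction of the 3 genes by its distance in kb from the 5′ end (Itpr2, Atp2b2) or the lower end (Itpr1), 1 row per library with a junction; arrowheads give the strand of the prey, the gene is light grey and the 5′ segment dark grey. In Itpr2 about as many junctions lie in the dark band as in the rest of the gene, in all 3 rows of etoposide without DRB.

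**Figure D5:**
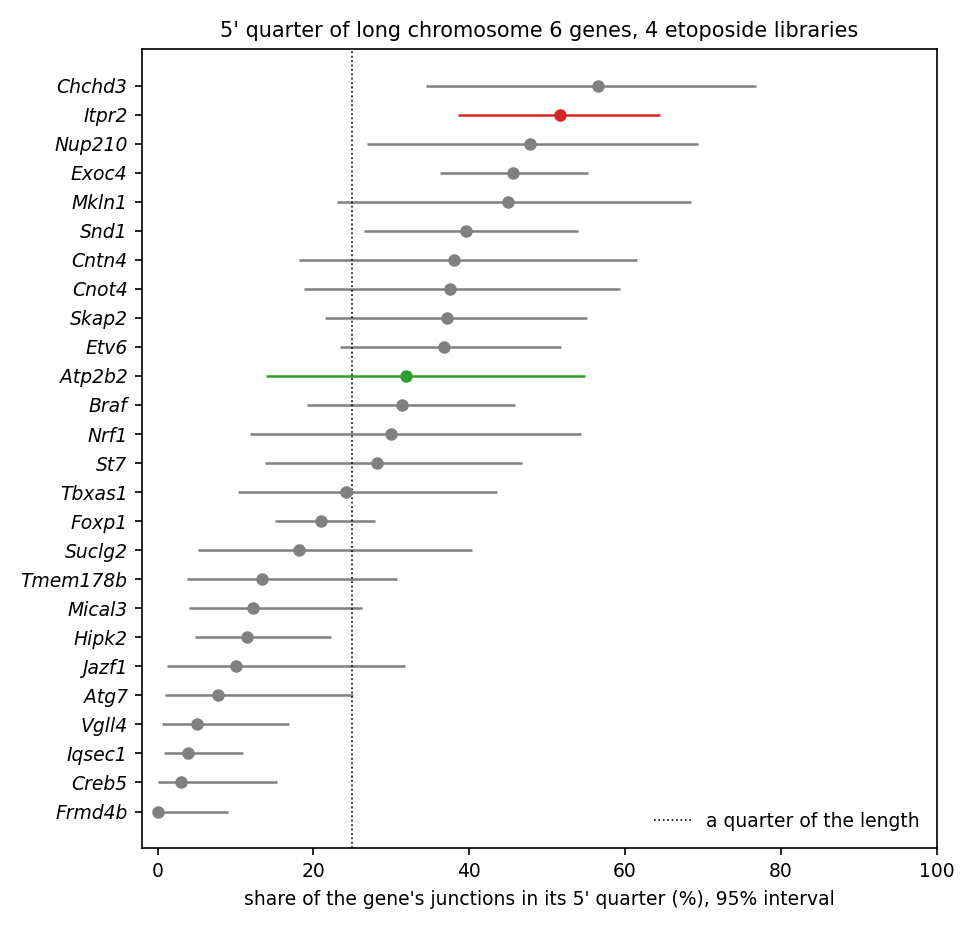
Share of junctions in the 5′ segment for the 26 chromosome 6 genes tested, with exact 95% binomial intervals; the dotted line marks the share that an even spread would give. Itpr2 is next to the top at 51.6%, and the interval of Atp2b2 spans the dotted line.

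The strand tells which side of the break in the gene was kept. For prey at a higher coordinate than the bait, a plus-strand read has the orientation of a deletion and a minus-strand read that of an inversion, if both ends come from the same copy of the chromosome. None of the 3 genes passed the test of its plus-strand share. Plus-strand junctions were 15 of 43 in Itpr1, or 34.9% (21.0 to 50.9), 27 of 65 in Itpr2, or 41.5% (29.4 to 54.4), and 15 of 22 in Atp2b2, or 68.2% (45.1 to 86.1). Other chromosome 6 genes on the same side of the bait had 50.8% with Itpr1 left out, 50.7% with Itpr2 left out and 50.4% with Atp2b2 left out. Fisher's exact test gave adjusted p = 0.142 for Itpr1, 0.387 for Itpr2 and 0.336 for Atp2b2, and called 5 of 53 genes (9.43%). In etoposide replicates 1 and 2 and with IFN and etoposide the plus-strand shares were 33.3%, 36.4% and 36.4% for Itpr1, 35.9%, 50.0% and 50.0% for Itpr2, and 69.2%, 50.0% and 71.4% for Atp2b2. Without etoposide replicate 1 the difference of Itpr2 from the other genes was -1.62 percentage points, against -9.19 with it.

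The joints were compared by the bases at the point of joining. Shared bases are those covered by both alignments, and a mismatch among them was not excluded. None of the 130 junctions of the 3 genes in the etoposide libraries had bases inserted between bait and prey, which for 65 junctions of Itpr2 allows a share of up to 5.52%, against 94 of 4718, or 1.99%, in the other chromosome 6 genes. Fisher's exact test called 0 of 53 genes for this share (0%), with 3 at an unadjusted p under 0.05. At least 3 shared bases were present in 67.7% (54.9 to 78.8) of joints in Itpr2, 53.5% (37.7 to 68.8) in Itpr1 and 77.3% (54.6 to 92.2) in Atp2b2, against 63.5% (61.8 to 65.2) in other genes on that side, and this was not tested. The bait end had lost at least 50 bases in 58.5%, 53.5% and 50.0% of joints in Itpr2, Itpr1 and Atp2b2, against 52.8% in the other genes.

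The genes whose junctions were spread over the 10 libraries most like those of each gene were sought among 67 others with at least 20 junctions. The measure is the sum of absolute differences between the shares of a gene's junctions in each library, divided by 2, so that 0 is the same spread. For Itpr2 these were Apobec1 (0.0273), Fam3c (0.0320) and Chchd3 (0.0408), where the median gene was at 0.158. For Itpr1 they were Cnot4 (0.00689), Nup210 (0.0533) and Chchd3 (0.0768), with a median of 0.199. For Atp2b2 they were Suclg2 (0.0725), Tmem178b (0.0758) and Tet3 (0.0893), with a median of 0.222. All 8 genes lie on chromosome 6, as do 63 of the 67 compared.

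Each of the other listed genes of calcium handling held fewer junctions than any of the 3 genes, though not always fewer for its length. Of 40 genes in the lists, Trpv5 and Trpv6 lie within 1 Mb of the bait and were left aside. On chromosome 6 the voltage-gated channel gene Cacna1c held 15 junctions in the etoposide libraries and Cacna2d4, which encodes a channel subunit, 10, and both had 0 in the 6 libraries without etoposide. Per 100 kb that was 2.44 and 8.34, so the receptor genes at 16.3 and 12.6 were denser than both and Atp2b2 at 7.27 lay between them.

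Off chromosome 6, 16 of 33 listed genes had any junction with etoposide, 36 in all, or 0.943 per 100 kb. Of all protein-coding genes off chromosome 6, 4436 of 20761 had one, at 0.712 per 100 kb, and those on chromosome 6 had 7.24 per 100 kb. The third receptor gene, Itpr3 on chromosome 17, had 0 junctions in every library. Of the ryanodine receptor genes, which encode the other release channels of the endoplasmic reticulum, Ryr2 had 2 and Ryr1 and Ryr3 had 0. The other plasma membrane pump genes Atp2b1, Atp2b3 and Atp2b4 had 1, 0 and 0 with etoposide, and Atp2a2, which encodes a pump of the endoplasmic reticulum, had 1. Among genes upstream of the receptors, the adaptor gene Blnk had 10 junctions, all in the etoposide group, the phospholipase gene Plcg2 4 and the kinase gene Syk 3. The sensor gene Stim2 had 2, the entry channel gene Orai2 1 and the mitochondrial exchanger gene Slc8b1 4. Among those with more than 1 junction, Slc8b1 held 14.9 per 100 kb and Blnk 14.4, above Itpr1 and Atp2b2, on genes of 22.9 and 65.3 kb.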

How the data were processed

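Genomic DNA from 10 libraries was assayed by high-throughput genome-wide translocation sequencing (HTGTS), per the labels' protocols. The deposited files list 1 junction per row, with no counts per region and no normalization, per the file headers. Per the submitters' processing notes, bedtools was used, and 2 builds are named, GRCm38.p2 and mm10. The aligner is not given in the sources used here.

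Of 68433 junctions, 83 outside the assembled chromosomes were dropped. The bait break is the 95th percentile of the bait alignment ends. Genes came from RefSeq for GRCm38.p6, which shares coordinates with mm10, and 5′ ends from its promoter table. Where genes overlapped, a junction was given to the gene whose end was closest. At least 10 annotated receptor gene segments, no more than 1 Mb apart, made an antigen receptor locus. By their read names the libraries came from 4 sequencing runs. Replicate 1 of etoposide and of untreated shared a run, whose median prey alignments were 271 and 252 bp, against 66 to 77 bp in the others. Etoposide replicate 2 shared a run with both other etoposide libraries, untreated replicate 2 with IFN and with DRB, and the AsiSI libraries with each other.

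Fits and tests ran on all genes with enough junctions, p-values adjusted by Benjamini-Hochberg, called under 0.05: limma 3.58.1 in R 4.3.3 for etoposide against untreated, with library size set to prey junctions, and Fisher's exact test (scipy 1.17.1, Python 3.11.15) elsewhere. Both were tested on simulated data with more junctions per gene than here, so those checks do not cover counts as sparse as these. Limits for a count of 0 are 3 junctions. Nothing says that replicates were separate cultures, so p-values may measure technical spread. The members, lists and comparisons were chosen with earlier results of these data known. Named genes were the members, at most 12 listed genes with a junction, and the 3 nearest in spread over libraries. Listed genes without a junction (Itpr3, Ryr1, Ryr3, Atp2b3) and Gm15083 fall outside that rule and were added after their values were seen.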

Additional observations from a re-analysis of the deposited data

How the results depend on the processing

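The share of Itpr2 junctions in its 5′ segment stayed above the other genes and past the threshold under every alternative run (23.2 to 25.6 percentage points). Without etoposide replicate 1, however, p was adjusted over only 7 genes. The number of genes called for that share ranged from 2 to 10 when 1 library was left out, for the share near either end from 1 to 4, and for strand from 0 to 3, with 9 for strand at a minimum of 10 junctions.

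For etoposide against untreated, 69 genes were called in either direction. The count was 0 with library sizes from prey outside receptor loci, 0 with library sizes from near-bait junctions (limma; 2 and 13 at an unadjusted p under 0.05), 3017 with no minimum, where 2964 were lower, and 0 to 1 when any library was left out. With the replicate number as a block it was 65. The same-numbered libraries deviated together with a correlation of 0.0431 over 121 genes. Of these genes 97 had 0 junctions in both untreated libraries and so the same untreated deviation, which leaves this check little power to show pairing. The numbers were not taken as pairs in the main fit. The fitted log2 change of Atp2b2 was 0.54 and reversed to -0.28 with prey outside receptor loci.

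Per prey outside receptor loci, IFN with etoposide against IFN called 1 gene, lower, and DRB with etoposide against etoposide replicate 2 called 2, both higher. Per near-bait junction with no minimum, the counts were 9 and 0. Against etoposide replicate 1, DRB with etoposide called 81 genes and IFN with etoposide 109, and there the log2 ratio of IFN with etoposide to etoposide was -2.33 for Itpr1 and -2.87 for Itpr2, reversed from 0.32 and 0.53. Etoposide replicate 1 held 1198 near-bait junctions, and its part in this was not tested. Per 1000 junctions 20 kb to 1 Mb from the bait, etoposide minus untreated was 133 for Itpr2, 91.4 for Itpr1 and 35.7 for Atp2b2. The untreated libraries held only 5 and 10 such junctions.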
